A study of Mus musculus with 12 samples.

Results

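The genes described are the 7 inhibitors of cyclin-dependent kinases, Cdkn1a, Cdkn1b, Cdkn1c, Cdkn2a, Cdkn2b, Cdkn2c and Cdkn2d, and the 2 kinases Cdk4 and Cdk6. They were chosen by gene symbol, and all 9 were found among the 22362 symbols that the 3 deposited tables share. RNA sequencing measured them in 12 libraries from cultured marrow cells of C57BL/6 mice, with 2 libraries in each of 6 groups. In the MLL-AF9 cotransduction, lineage-negative (Lin-) marrow cells received MLL-AF9, a leukemia fusion gene also labelled MAF9, together with either PRDM16 or PRDM16mut. The E2A-HLF cotransduction gave the same kind of cells the leukemia fusion gene E2A-HLF with either PRDM16 or PRDM16mut. In the third experiment, called MLL-AF9 stable cells, marrow cells that already carried MLL-AF9 received PRDM16 or PRDM16mut. Every culture was kept in IMDM with 15% FBS and with the cytokines IL3, IL6 and SCF, every one at 10 ng/ml. Cotransduced cells were taken after 10 days of G418 and puromycin, and the stable cells after 10 days of puromycin alone. PRDM16 is a histone methyltransferase, per the series title, and the labels do not say what PRDM16mut changes. No group used here lacked both forms, so each value compares PRDM16 with PRDM16mut and not with cells free of the gene. The labels give no age for the mice, and they do not say whether the 2 samples of a group were separate cultures, so p-values measure only the spread between these samples, which may be technical.

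Progress from G1 into S phase depends on Cdk4 and Cdk6, which pair with D-type cyclins and phosphorylate the retinoblastoma protein, releasing E2F factors. The Ink4 inhibitors, encoded by Cdkn2a, Cdkn2b, Cdkn2c and Cdkn2d, bind Cdk4 and Cdk6 themselves. The Cip/Kip inhibitors, encoded by Cdkn1a (p21), Cdkn1b (p27) and Cdkn1c (p57), bind a wider range of cyclin and kinase complexes. In blood formation Cdkn1c is known from quiescent stem cells, Cdkn2c from the stem cell and progenitor pool, and Cdk6 as a kinase whose gene MLL fusion proteins bind and activate. Cdkn2a encodes both an Ink4 protein and the p53 activator Arf from transcripts with different first exons, and the tables give it a single value.

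Promoter windows of Cdkn1a, Cdkn2b, Cdk4 and Cdk6 are shown as examples, chosen after their motifs were seen. These genes were called in the MLL-AF9 cotransduction, and their windows between them held every motif searched. RefSeq promoter windows on build GRCm38.p6, taken here as the 250 bases before each transcript start, were found for 8 of the 9 genes, in 11 windows. The windows are described by their sequence only, since the expression files use the older build mm9 and carry no peak, binding or methylation data. Capitals mark motifs found by a search of both strands. In the first Cdkn1a window, at chr17:29090729-29090978 on the plus strand, the capitals are 2 matches to the p53 half-site. In the second, at chr17:29093519-29093768, whose transcript starts 2790 bases further downstream, they are 2 GC boxes (GGGCGG). The Cdkn2b window at chr4:89311033-89311282, on the minus strand, held a cyclic AMP response element (TGACGTCA). In the Cdk4 window, at chr10:127063285-127063534 on the plus strand, the capitals are 4 E-boxes (CACGTG), the site that Myc with its partner Max is known to bind, and 1 GC box on the opposite strand. The Cdk6 window at chr5:3343643-3343892, also on the plus strand, held 1 E-box.
Cdkn1a, first start: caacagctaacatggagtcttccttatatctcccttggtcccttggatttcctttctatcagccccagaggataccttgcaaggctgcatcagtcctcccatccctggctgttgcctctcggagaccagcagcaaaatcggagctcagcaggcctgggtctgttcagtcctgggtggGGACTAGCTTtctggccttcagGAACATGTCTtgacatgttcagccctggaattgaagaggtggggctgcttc
Cdkn1a, second start: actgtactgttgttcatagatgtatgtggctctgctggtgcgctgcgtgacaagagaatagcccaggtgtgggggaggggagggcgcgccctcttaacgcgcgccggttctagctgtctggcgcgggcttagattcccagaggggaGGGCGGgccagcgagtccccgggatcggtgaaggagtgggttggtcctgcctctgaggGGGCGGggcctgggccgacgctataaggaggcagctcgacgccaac
Cdkn2b: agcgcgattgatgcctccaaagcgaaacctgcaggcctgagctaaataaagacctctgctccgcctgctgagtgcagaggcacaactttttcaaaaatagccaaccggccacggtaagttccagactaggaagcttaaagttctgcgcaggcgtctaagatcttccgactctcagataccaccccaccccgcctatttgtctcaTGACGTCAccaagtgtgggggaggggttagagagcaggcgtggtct
Cdk4: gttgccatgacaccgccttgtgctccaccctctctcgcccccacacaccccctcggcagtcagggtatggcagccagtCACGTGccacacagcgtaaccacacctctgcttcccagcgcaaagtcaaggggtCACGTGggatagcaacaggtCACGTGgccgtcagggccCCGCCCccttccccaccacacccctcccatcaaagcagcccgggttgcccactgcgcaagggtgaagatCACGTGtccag
Cdk6: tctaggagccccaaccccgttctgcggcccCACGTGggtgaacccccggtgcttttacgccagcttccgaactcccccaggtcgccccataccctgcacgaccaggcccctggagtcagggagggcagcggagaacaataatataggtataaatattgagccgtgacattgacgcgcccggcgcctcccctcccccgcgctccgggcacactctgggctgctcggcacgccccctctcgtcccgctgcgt

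No marked motif overlapped another in these 5 windows. Of 32851 mouse promoter windows of the same length, 7.13% held a p53 half-site, 32.7% a GC box, 1.55% the cyclic AMP response element and 6.02% an E-box. Only 7 windows, 0.0213% of them, held 4 or more E-boxes, and that of Cdk4 was among them. Of the windows not shown, that of Cdkn1b held 1 GC box, the first of Cdkn2a 2, the first of Cdkn2c 3, and that of Cdkn2d 3 with 1 p53 half-site overlapping one of them. The second windows of Cdkn2a and Cdkn2c held none of the 4 motifs. Cdkn2a had 2 windows, on chromosome 4 with starts 12427 bases apart, which are not resolved in its single expression value. These matches describe the letters of the windows and not occupied sites.

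Values were FPKM (fragments scaled to transcript length and to the mapped reads of the library), summing to between 570872 and 683269 per library, with total depth not given. The entry Prdm16 does not separate introduced from endogenous transcripts, and it read 83.9 and 119 with PRDM16 against 29.5 and 30.1 with PRDM16mut in the MLL-AF9 cotransduction, 49.2 and 56.6 against 56.6 and 43.5 in the E2A-HLF cotransduction, and 77.9 and 80.0 against 89.1 and 94.6 in stable cells. Rn45s, a ribosomal precursor, was listed at 0 in both MLL-AF9 cotransduction libraries with PRDM16 and at 941 to 1554 in the other 10. Whether those libraries were processed differently, which would bear on every PRDM16 against PRDM16mut value of that experiment, was not tested. Fold changes below are log2 differences of FPKM + 1, PRDM16 minus PRDM16mut, from limma fitted to all genes of a table that reached an FPKM of 1 in at least 2 of its 4 libraries. A gene is said to rise, fall or be called where its Benjamini-Hochberg adjusted p was under 0.05. An exact permutation test of 2 libraries against 2 cannot give a p below 0.333, so each test rests on the spread that limma borrows across genes. In bulk samples, fewer cells of a type and less RNA per cell cannot be told apart.

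With PRDM16 in the MLL-AF9 cotransduction, the inhibitors Cdkn1a, Cdkn1c, Cdkn2a, Cdkn2b and Cdkn2c rose, together with Cdk4, while Cdk6 and Cdkn2d fell and Cdkn1b was not called. These were 8 of 9 genes called, where 69.5% of all genes tested were called (35.6% higher and 34% lower). In the E2A-HLF cotransduction Cdkn1a, Cdkn2a and Cdkn2b rose and Cdkn1c, Cdkn2c and Cdk4 fell, 6 of 9 genes against 43.8% of all genes (22.7% higher and 21.1% lower). In stable cells Cdkn1a and Cdkn2a rose and Cdkn1c fell, 3 of the 8 genes that could be tested, against 6.36% of all genes (4.2% higher and 2.16% lower). The values of the PRDM16 and PRDM16mut libraries did not overlap for 8, 7 and 6 of the 9 genes in the 3 experiments. The share of all tested genes without overlap was 86.3%, 73.7% and 60.6%, so at 2 libraries a group such separation was common. The median log2 change of the tested genes was 0.28, 0.05 and 0.10 in that order, beside 0.00622, 0.0112 and 0.0148 over all genes tested. The median size of change, without its sign, was 0.58, 0.49 and 0.12, beside 0.37, 0.16 and 0.07 for all genes. In stable cells 66.0% of calls over all genes were higher with PRDM16, a share that became 50.7% after quantile normalization and 52.2% after median-of-ratios scaling, and the 3 genes named kept their direction and call under both.

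**Figure D1:**
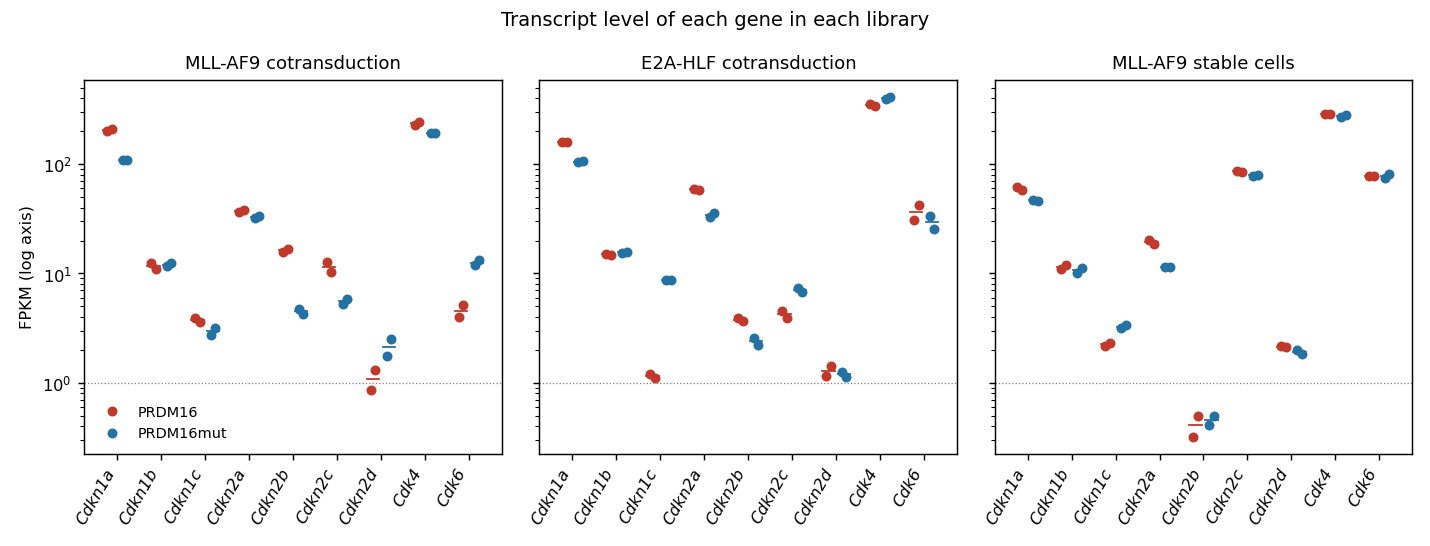
FPKM of the 9 genes (log axis) in each of the 12 libraries, with PRDM16 and PRDM16mut libraries side by side in every experiment and a dotted line at an FPKM of 1. Cdkn1a lies higher with PRDM16 in each experiment, Cdkn1c separates in every experiment, most widely in the E2A-HLF cotransduction, Cdk6 separates in the MLL-AF9 cotransduction only, and Cdkn2b lies below the dotted line in all 4 stable-cell libraries.

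Among the Cip/Kip genes, Cdkn1a, a p53 target that can arrest cells in G1, was the most abundant inhibitor in the cotransductions. Its FPKM in the MLL-AF9 cotransduction was 200.3 and 212 with PRDM16 and 108 in both PRDM16mut libraries. The rise was 0.92 (SE 0.0521, 95% confidence interval 0.79 to 1.05, limma adjusted p = 7.12e-05), a 1.90-fold difference in mean FPKM. Cdkn1a read 159 in the E2A-HLF cotransduction in both PRDM16 libraries against 104 and 107 with PRDM16mut, a rise of 0.59 (limma adjusted p = 1.64e-04). In stable cells it was 61.2 and 57.7 against 46.8 and 46.3, a rise of 0.35 (limma adjusted p = 0.0156). Both PRDM16 libraries lay above both PRDM16mut libraries each time. Both cotransduction calls held under every alternative tried, but in stable cells the adjusted p was 0.0546 to 0.0910 with any 1 of the 4 libraries left out and 0.0750 without the filter on low values.

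Cdkn1b, whose p27 protein is controlled largely by its degradation, was not called in any of the 3 experiments. Its 12 FPKM values ran from 10.2 to 15.8, and the PRDM16 and PRDM16mut libraries overlapped in the MLL-AF9 cotransduction and in stable cells. The log2 differences were -0.05, -0.05 and 0.09, with limma adjusted p of 0.632, 0.373 and 0.380. Their 95% confidence intervals were -0.25 to 0.16, -0.17 to 0.06 and -0.07 to 0.25, so changes of that size remain within the error.

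Cdkn1c, an imprinted gene expressed from the maternal copy, moved in opposite directions. In the E2A-HLF cotransduction its FPKM was 1.21 and 1.10 with PRDM16 and 8.75 and 8.67 with PRDM16mut. Its fall by 2.17 on the log2 scale (SE 0.0604, limma adjusted p = 4.40e-06) was a 7.57-fold difference in mean FPKM, and 1.5% of tested genes changed more. The MLL-AF9 cotransduction levels were 3.94 and 3.64 against 2.72 and 3.20, a rise of 0.28 (limma adjusted p = 0.0318). That call ended without the first PRDM16 library (adjusted p = 0.0873), without the first PRDM16mut library (0.210) and without the filter on low values (0.0762). In stable cells the levels were 2.16 and 2.33 against 3.14 and 3.39, a fall by 0.40 (limma adjusted p = 0.0305). The adjusted p there was 0.0835 to 0.155 with any 1 library left out and 0.107 without the filter.

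Cdkn2a, which encodes the Ink4 inhibitor p16Ink4a and Arf, rose in all 3 experiments. Its FPKM in the E2A-HLF cotransduction was 59.3 and 58.5 with PRDM16 against 32.6 and 35.7, a rise of 0.77 (SE 0.0542, limma adjusted p = 1.52e-04). In stable cells the values were 20.4 and 18.6 against 11.4 in both PRDM16mut libraries, a rise of 0.73 (SE 0.0494, limma adjusted p = 0.00397). Of all genes tested in stable cells, 0.681% changed more than Cdkn2a. The call in stable cells held with each library left out and ended without the filter on low values (adjusted p = 0.0608). The values lay closer in the MLL-AF9 cotransduction, 36.7 and 38.0 against 32.3 and 33.8, a rise of 0.17 (limma adjusted p = 0.0375). That call ended after quantile normalization (adjusted p = 0.0570), after median-of-ratios scaling (0.0523), and without the first or the second PRDM16mut library (0.336 and 0.183). Cdkn1a and Cdkn2a were the 2 of the 8 genes testable in every table that were called higher in all 3, as were 57 of 9488 such genes (0.601%). None of the 8 was called lower in all 3, which 4 genes were (0.0422%).

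Cdkn2b, the neighbour of Cdkn2a whose p15 protein mediates arrest by TGF-beta, gave the widest range across groups. In the MLL-AF9 cotransduction its FPKM was 15.8 and 16.7 with PRDM16 and 4.76 and 4.23 with PRDM16mut. The rise was 1.65 (SE 0.0736, 95% confidence interval 1.46 to 1.84, limma adjusted p = 3.40e-05), a 3.61-fold difference in mean FPKM. In either direction, 6.29% of tested genes had a larger log2 change. Cdkn2b values in the E2A-HLF cotransduction were 3.89 and 3.65 against 2.58 and 2.20, a rise of 0.49 (limma adjusted p = 0.00378). In stable cells all 4 libraries read between 0.321 and 0.5004, overlapping between the forms, and the gene was not tested. The ratio of Cdkn2a to Cdkn2b, both per length, was 2.33 and 2.28 with PRDM16 and 6.78 and 7.99 with PRDM16mut in the MLL-AF9 cotransduction. Ratios in the E2A-HLF cotransduction were 15.2 and 16.02 against 12.6 and 16.2, which overlapped. In stable cells, where Cdkn2b was under 1 FPKM, they were 63.6 and 37.3 against 27.6 and 23.0, higher with PRDM16.

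Cdkn2c, which encodes the p18 inhibitor, also changed sign between experiments. Its FPKM was 12.7 and 10.2 with PRDM16 against 5.25 and 5.87 in the MLL-AF9 cotransduction, a rise of 0.92 (limma adjusted p = 0.00118). The E2A-HLF values were 4.51 and 3.94 against 7.36 and 6.82, a fall by 0.63 (limma adjusted p = 0.00124). Set across the separately normalized tables it was more abundant in stable cells, at 87.1 and 84.4 against 78.1 and 79.2, with a log2 difference of 0.12 that was not called (limma adjusted p = 0.0751). Those stable-cell libraries did not overlap, but the difference was small beside the level.

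Cdkn2d, which encodes the fourth Ink4 protein, was scarce everywhere, between 0.860 and 2.54 FPKM. Cdkn2d read 0.860 and 1.32 with PRDM16 and 1.75 and 2.54 with PRDM16mut in the MLL-AF9 cotransduction, a fall by 0.58 (limma adjusted p = 0.0227). The call ended without the first PRDM16 library (adjusted p = 0.0808), without the second PRDM16mut library (0.0874) and without the filter (0.0657), and with a pseudocount of 0.1 the fall was larger (log2 change -0.92, adjusted p = 0.0258). Its differences of 0.05 in the E2A-HLF cotransduction and 0.11 in stable cells were not called (limma adjusted p = 0.645 and 0.274).

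Of the kinases, Cdk4 was the more abundant in every library. Its FPKM in the MLL-AF9 cotransduction was 229 and 243 with PRDM16 and 194 and 193 with PRDM16mut, a rise of 0.28 (limma adjusted p = 0.00575). The call ended without the first or the second PRDM16mut library (adjusted p = 0.0881 and 0.0939), and after quantile normalization the rise was 0.16 (0.0467). The order was the other way in the E2A-HLF cotransduction, 353 and 337 against 398 and 413, a fall by 0.23 (limma adjusted p = 0.0171) that was not called without the first or the second PRDM16 library (0.0650 and 0.149). In stable cells the values were 289 and 285 against 272 and 279, a log2 difference of 0.06 that was not called (limma adjusted p = 0.281).

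Cdk6, the kinase known as a target of MLL fusions, fell in the MLL-AF9 cotransduction. Its FPKM was 3.96 and 5.14 with PRDM16 and 11.9 and 13.3 with PRDM16mut, a fall by 1.30 on the log2 scale (SE 0.120, 95% confidence interval -1.60 to -0.99, limma adjusted p = 3.86e-04). The mean was 2.76-fold higher with PRDM16mut, and the call held under every alternative tried. Cdk6 overlapped between forms in the E2A-HLF cotransduction, at 30.5 and 42.3 against 33.3 and 25.5, with a log2 difference of 0.29 (95% confidence interval -0.14 to 0.73, limma adjusted p = 0.231). Without the first PRDM16 library that difference was 0.52 and was called (adjusted p = 0.0272). In stable cells Cdk6 read 77.8 and 77.4 against 75.2 and 82.0, a difference of -0.02 (95% confidence interval -0.13 to 0.10, limma adjusted p = 0.826).

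**Figure D2:**
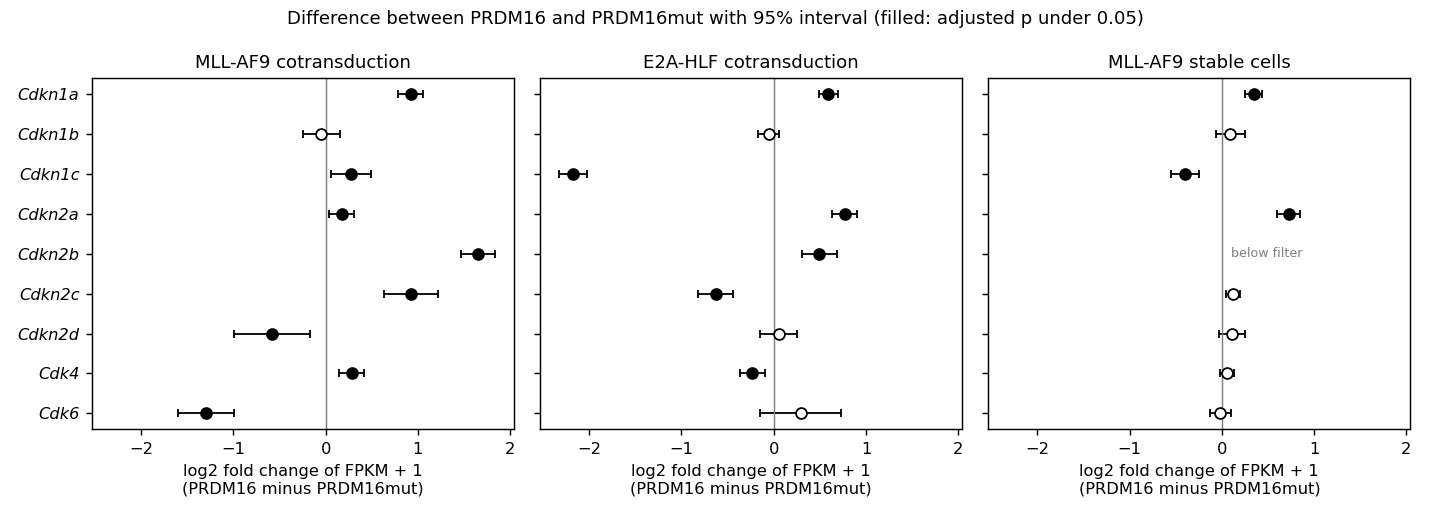
Log2 difference of FPKM + 1, PRDM16 minus PRDM16mut, for each gene in the 3 experiments, with 95% confidence intervals from limma and filled symbols where the adjusted p was under 0.05. Cdkn1a and Cdkn2a lie to the higher side in all 3, though not by the same size in each. The estimates of Cdkn1c, Cdkn2c, Cdk4 and Cdk6 take different sides from one experiment to the next, not all of them called.

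The change with PRDM16 itself differed between experiments for most of these genes, by limma contrasts of the within-experiment differences over 9488 genes. Between the E2A-HLF and MLL-AF9 cotransductions 7 of 8 genes differed, all but Cdkn1b, against 71.4% of all genes. Between stable cells and the MLL-AF9 cotransduction 7 of 8 differed, again all but Cdkn1b, against 64%. The Cdkn1b difference there was 0.14 (limma adjusted p = 0.237), and without the first PRDM16 library of the MLL-AF9 cotransduction it was 0.23 and was called (0.0460). Between stable cells and the E2A-HLF cotransduction 4 of 8 differed, Cdkn1a, Cdkn1c, Cdkn2c and Cdk4, against 37.1%. Each pair of contrasts shares the libraries of 1 experiment. The change of Cdkn1c was lower by 2.45 in the E2A-HLF than in the MLL-AF9 cotransduction (difference -2.45, limma adjusted p = 6.41e-09). For Cdkn2c the same difference was -1.55 (limma adjusted p = 1.68e-06), and for Cdk6 it was 1.59 (limma adjusted p = 9.82e-05). The change of Cdkn2a was larger in the E2A-HLF cotransduction by 0.60 and in stable cells by 0.55 than in the MLL-AF9 cotransduction (limma adjusted p = 5.23e-05 and 1.24e-04). Between stable cells and the E2A-HLF cotransduction Cdkn2a differed by -0.04 (95% confidence interval -0.22 to 0.13, limma adjusted p = 0.687). Cdkn2b missed the filter in stable cells. With no filter its change was smaller by 1.16 in the E2A-HLF cotransduction (difference -1.16, limma adjusted p = 3.46e-05) and by 1.70 in stable cells (difference -1.70, 4.19e-06) than in the MLL-AF9 cotransduction.

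Levels across the 6 groups are set side by side here although the tables were normalized separately. Mean Cdkn1a fell in order from 206 FPKM in the MLL-AF9 cotransduction with PRDM16 to 46.5 in stable cells with PRDM16mut, a 4.42-fold range in which no neighbouring groups overlapped. Cdkn2a ranged 5.16-fold, from 58.9 in the E2A-HLF cotransduction with PRDM16 to 11.4 in stable cells with PRDM16mut, and the PRDM16mut groups of the cotransductions, at 34.2 and 33.0, overlapped. Cdkn2c ranged 20.3-fold, from 85.8 in stable cells with PRDM16 to 4.23 in the E2A-HLF cotransduction with PRDM16, without overlap of neighbours. Cdk6 ranged 17.3-fold, from 78.6 in stable cells with PRDM16mut, overlapping the 77.6 with PRDM16, to 4.55 in the MLL-AF9 cotransduction with PRDM16. Cdkn2b ranged 39.5-fold between 16.2 and 0.411, its lowest group overlapping the next at 0.455. Cdkn1c ranged 7.57-fold between the E2A-HLF groups, and the stable PRDM16mut group, at 3.26, overlapped the MLL-AF9 cotransduction PRDM16mut group, at 2.96. Cdk4 ranged 2.10-fold without overlap of neighbours. Cdkn2d ranged 1.97-fold and Cdkn1b 1.46-fold, with most neighbouring groups overlapping.

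FPKM is per length, so levels can be added across genes, and these sums are given as a description with no test. The 7 inhibitors together came to 1.22 and 1.18 times the sum of Cdk4 and Cdk6 in the MLL-AF9 cotransduction with PRDM16, and to 0.810 and 0.825 times it with PRDM16mut. The ratio in the E2A-HLF cotransduction was 0.639 and 0.640 against 0.398 and 0.404. In stable cells it was 0.502 and 0.491 against 0.438 and 0.426. In each experiment both PRDM16 libraries lay above both PRDM16mut libraries. Of single tested genes, 86.3%, 73.7% and 60.6% were likewise without overlap, in either direction. The inhibitor sum was mostly Cdkn1a in the cotransductions. Cdkn2d fell in the MLL-AF9 cotransduction, Cdkn1c and Cdkn2c in the E2A-HLF cotransduction and Cdkn1c in stable cells. For the 4 Ink4 genes alone the ratio was 0.284 and 0.266 against 0.214 and 0.225, then 0.180 and 0.178 against 0.102 and 0.105, then 0.2998 and 0.292 against 0.265 and 0.258. The single Cdkn2a value in both kinds of sum also covers Arf transcripts, which do not encode an Ink4 protein. These ratios are therefore not a measure of kinase inhibitor transcripts alone.

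The make-up of these sums varied between experiments. Cdkn1a made up 63.6% to 72.4% of inhibitor FPKM in the MLL-AF9 cotransduction, 60.3% to 65.6% in the E2A-HLF cotransduction and 30.1% to 33.2% in stable cells. Cdkn2c made up 47.3% to 51.5% in stable cells and 1.63% to 4.51% in the cotransductions. Cdk6 contributed 1.70% and 2.07% of kinase FPKM with PRDM16 and 5.77% and 6.44% with PRDM16mut in the MLL-AF9 cotransduction. Its share was 7.97% and 11.2% against 7.72% and 5.82% in the E2A-HLF cotransduction, and 21.2% to 22.7% in stable cells.

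**Figure D3:**
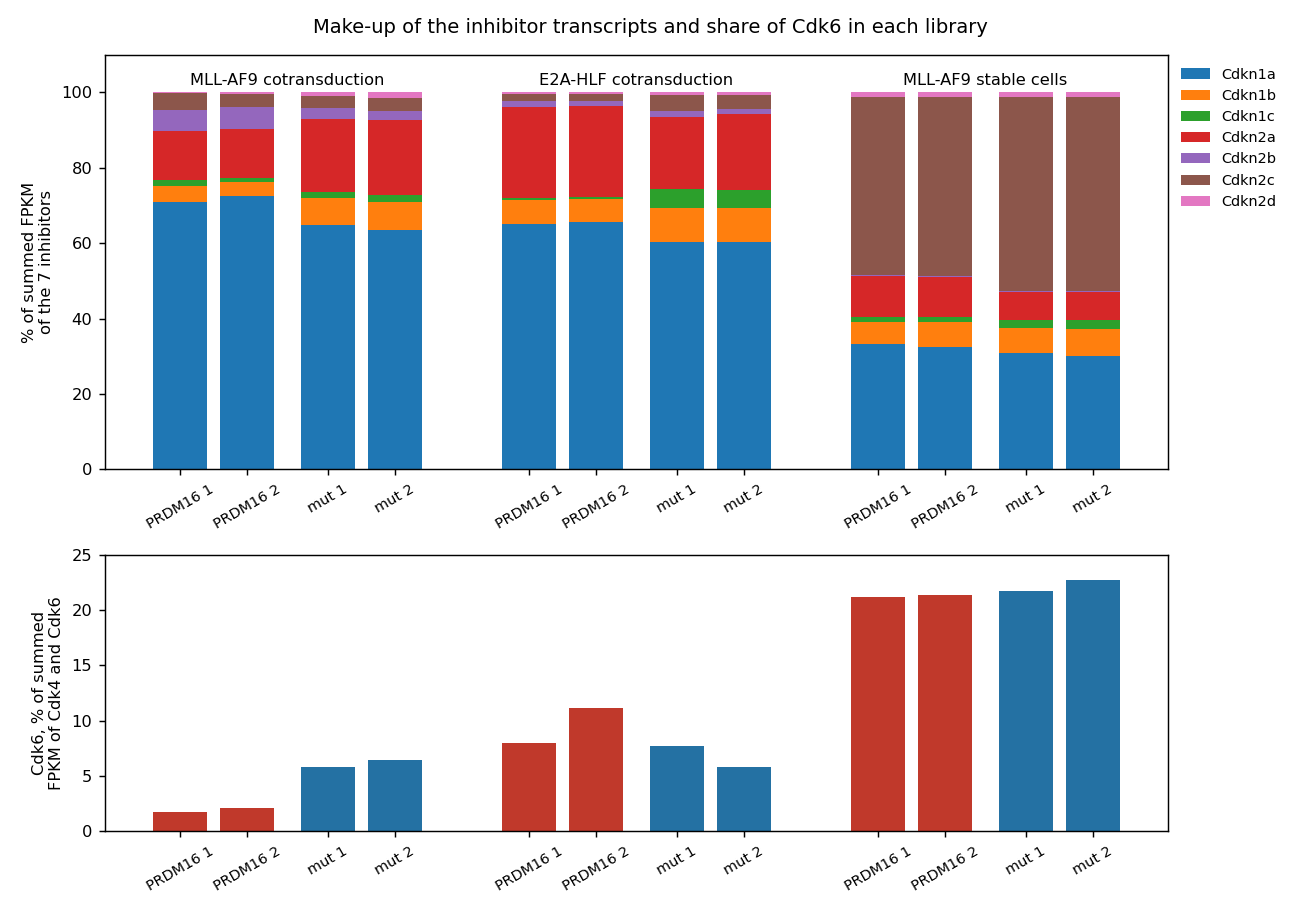
Upper panel: share of each inhibitor in the summed FPKM of the 7 inhibitors, in percent, by library. Lower panel: share of Cdk6 in the summed FPKM of Cdk4 and Cdk6, in percent, by library. Cdkn1a takes the largest share in the cotransductions and Cdkn2c in stable cells. The Cdk6 share is lower with PRDM16 in the MLL-AF9 cotransduction and, slightly, in stable cells, and higher with PRDM16 in the E2A-HLF cotransduction.

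Genes that act with the inhibitors and kinases are described from lists chosen with earlier results of these data known, so their direction is no independent evidence. Their counts stand beside 69.5% of all genes called in the MLL-AF9 cotransduction (35.6% higher, 34% lower), 43.8% in the E2A-HLF cotransduction (22.7% higher, 21.1% lower) and 6.36% in stable cells (4.2% higher, 2.16% lower). Counts at an unadjusted p under 0.05, given below for stable cells, have no such share beside them, since it was not computed. One list held cyclins and kinases of G1 and S phase and factors acting on them, such as Cdc25a, Cdkn3 and Mnat1. Of its 13 tested genes, 1 rose and 10 fell with PRDM16 in the MLL-AF9 cotransduction (median log2 change -0.47). The one that rose was Ccnd1 (cyclin D1), at 9.16 and 9.48 with PRDM16 and 1.55 and 1.66 with PRDM16mut (log2 change 1.99, limma adjusted p = 1.13e-05). Cdk2, the kinase of S-phase entry, fell by 1.13, and Cdc25a, the phosphatase that activates it, fell by 1.24 (limma adjusted p = 3.67e-05 and 4.64e-05). Of the same 13 genes, 4 rose and 1 fell in the E2A-HLF cotransduction. There Ccnd1 fell by 0.55, Ccnd2 (cyclin D2) rose by 0.31 and Ccnd3 (cyclin D3) rose by 0.49, whereas in the MLL-AF9 cotransduction Ccnd2 fell by 0.34 and Ccnd3 by 0.37. In stable cells Ccnd3 was 99.4% to 99.5% of D-cyclin FPKM and its difference of 0.02 was not called (limma adjusted p = 0.683), Ccnd1 and Ccnd2 were under the filter, and Cdc25a alone of 11 fell, by 0.17 (limma adjusted p = 0.0430).

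Of 17 genes of the Rb family, E2F and the DREAM repressor complex, 3 rose and 9 fell in the MLL-AF9 cotransduction (median -0.33). The E2F partner Tfdp1 fell by 1.08, E2f8 fell by 0.998 and the Rb relative Rbl1 fell by 0.91. The E2A-HLF cotransduction had 4 higher and 4 lower, E2f8 rising by 0.95 and Tfdp2 falling by 0.66. In stable cells E2f2 rose by 0.18 and E2f4 fell by 0.16 among 17. The MLL-AF9 cotransduction had 22 of 22 proliferation genes lower (median -0.68), among them Mki67, a marker of cycling cells, which fell by 1.504. With E2A-HLF 4 rose and 4 fell, Cdc45 rising by 0.32 and Mcm7 falling by 0.21. In stable cells 0 were called by limma, with 3 higher and 0 lower at an unadjusted p under 0.05.

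Of 11 genes for the turnover of Cip/Kip proteins, 4 were called in the MLL-AF9 cotransduction, all lower, a smaller share than the 69.5% of all genes and near the 34% called lower. There Skp2 and Cks1b, factors of the p27 ubiquitin ligase, fell by 0.45 and 0.24. With E2A-HLF 3 fell, among them Fbxw7 by 0.53. In stable cells limma called 0 of 11, with 2 higher and 1 lower at an unadjusted p under 0.05. Of 17 p53 targets other than Cdkn1a, 12 rose and 3 fell in the MLL-AF9 cotransduction (median 0.59). Perp, a membrane protein of p53-dependent death, rose by 1.54, Btg2, an antiproliferative gene, by 1.25, and Sesn1 by 1.19. Fas fell by 0.40, Tnfrsf10b by 0.28 and Rrm2b by 0.20. With E2A-HLF 6 of 15 rose and 3 fell, with Perp up 2.48 and Sesn1 falling by 0.61. In stable cells limma called 0 of 15, with 2 higher and 1 lower at an unadjusted p under 0.05. Mdm2, also a p53 target, was counted with the regulators below. It fell by 0.16 in the MLL-AF9 cotransduction, rose by 0.34 in the E2A-HLF cotransduction and was not called in stable cells (limma adjusted p = 0.0330, 0.00138 and 0.433).

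Among 18 tested regulators of Cip/Kip and Ink4 genes, 8 rose and 6 fell in the MLL-AF9 cotransduction, a share near the 69.5% of all genes called there. Gfi1, a repressor known to act on Cdkn1a, read 1.23 and 2.01 with PRDM16 and 88.6 and 88.8 with PRDM16mut, a fall by 5.12 (limma adjusted p = 8.70e-06). Ets1 fell by 3.48 there and Foxo1 rose by 1.59. Among 16 in the E2A-HLF cotransduction 4 rose and 6 fell, with Foxo1 falling by 1.20 and Id1 rising by 0.92. Trp53, which encodes p53, rose by 0.64 in the MLL-AF9 cotransduction and fell by 0.19 in the E2A-HLF cotransduction (limma adjusted p = 5.12e-04 and 0.0304), and its difference of -0.08 in stable cells was not called (0.134). Klf6, a zinc finger factor known to act on Cdkn1a, was called higher in all 3, by 0.49, 0.90 and 0.26, and in stable cells it alone of 16 rose while Ets1 alone fell, by 0.21. Of 15 Polycomb genes, 6 rose and 5 fell in the MLL-AF9 cotransduction, also near that 69.5%, with Phc1 up 1.28 and Jarid2 falling by 0.99. With E2A-HLF 4 rose and 6 fell, with Phc1 falling by 0.60. In stable cells limma called 0 of 14, with 1 higher and 1 lower at an unadjusted p under 0.05.

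**Figure D4:**
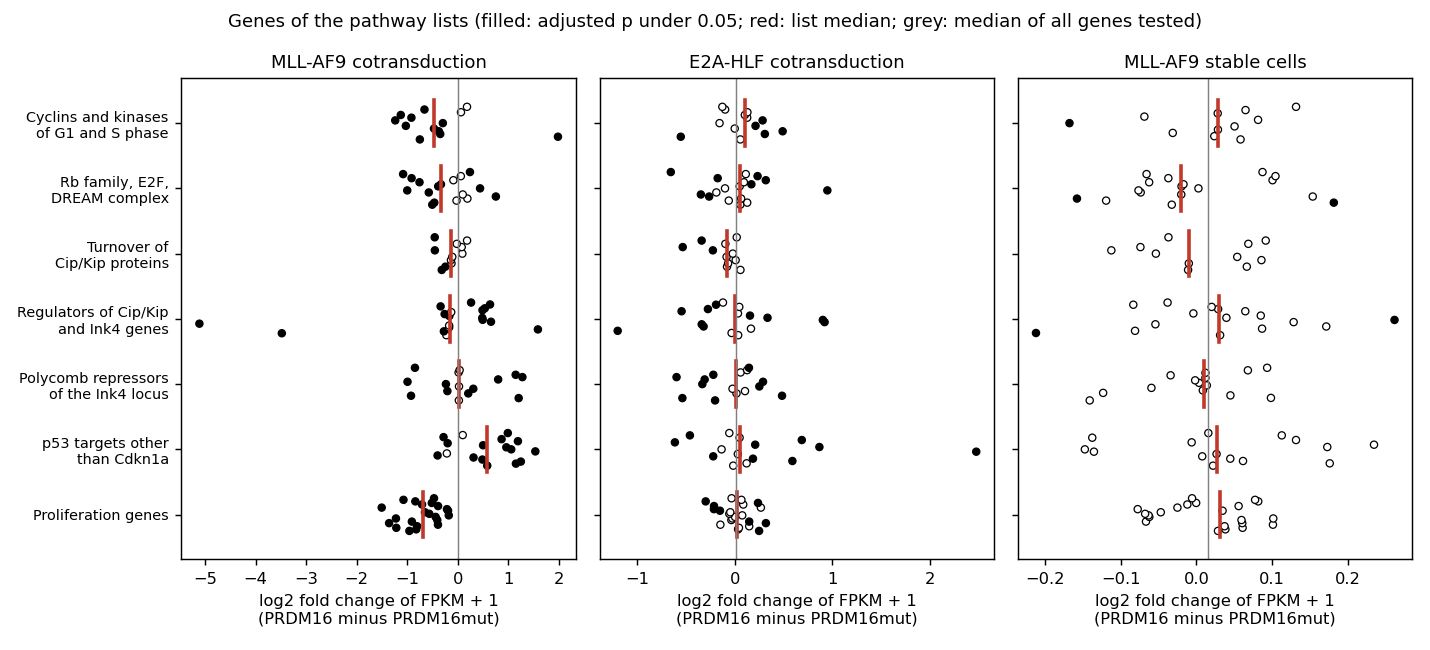
Log2 difference of FPKM + 1, PRDM16 minus PRDM16mut, of every tested gene (points) in 7 pathway lists, 1 panel per experiment, with a bar at each list's median. The horizontal axis differs between panels. In the MLL-AF9 cotransduction all 22 proliferation genes lie below 0, while the other panels hold genes on both sides of 0 in that list.

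Markers of blood cell types moved with the same comparisons. In the MLL-AF9 cotransduction 13 of 13 neutrophil markers fell, their summed FPKM being 1448 and 1381 with PRDM16 and 55283 and 54190 with PRDM16mut, and 11 of 12 mast cell and basophil markers fell and 1 rose, with sums of 243 in both against 2905 and 2867. There 11 of 13 monocyte, macrophage and dendritic markers rose (sums 6445 and 6622 against 2207 and 2222), as did 8 of 9 erythroid markers (1237 and 784 against 286 and 222), 4 of 7 megakaryocyte markers, 2 of 4 B, T and NK cell markers and 1 of 3 stromal markers. Of these lists 1 monocyte, 1 erythroid, 3 megakaryocyte and 2 stromal markers fell. In the E2A-HLF cotransduction 9 of 10 neutrophil markers rose (2119 and 2019 against 677 and 691), as did 6 of 9 mast cell and basophil, 3 of 10 erythroid, 2 of 6 megakaryocyte, 1 of 4 lymphoid and 2 of 2 stromal markers, while 1 mast cell, 1 erythroid, 4 megakaryocyte and 2 lymphoid markers fell. Of its 13 monocyte, macrophage and dendritic markers 6 rose and 7 fell, with a median of -0.59 although their sum was higher (472 and 445 against 181 and 189). In stable cells neutrophil marker sums were 16302 and 16424 against 15612 and 16211, with 1 of 13 higher and 2 lower. Of the other lists there, 2 of 11 monocyte, macrophage and dendritic and 1 of 2 megakaryocyte markers rose and 1 of 2 erythroid markers fell. At an unadjusted p under 0.05, 9 of the 11 monocyte, macrophage and dendritic markers were higher. The share of all genes at that threshold was not computed. The median of these 11 markers was 0.19 beside 0.0148 over all genes, and summed FPKM of the list was 260.4 and 267 with PRDM16 against 227 in both PRDM16mut libraries. Limma called 0 of 5 mast cell, 0 of 3 lymphoid and 0 of 3 stromal markers, each list with 1 lower at an unadjusted p under 0.05. The Lin- label names the starting cells. Kit, a receptor of progenitors and mast cells, read between 5.29 and 47.5 in the 12 libraries. The B cell factor Pax5 was listed at 0 in all 12 libraries, and Tpsab1 at 0 in stable cells and the E2A-HLF cotransduction. The part of these cell types in the differences of the inhibitors and kinases was not tested.

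For each gene that passed the filter in every table, the 2 genes with the closest pattern were found by the root mean square difference of log2 values over the 12 libraries, each centred within its table. Cdkn1a lay closest to Trib3 (0.0529) and Ctsc (0.0626), beside a median of 0.353 over all genes. Cdkn1c lay closest to Oas3 (0.126) and Oas1a (0.194), beside a median of 0.667, and both Oas genes were lower with PRDM16 in the E2A-HLF cotransduction, by log2 differences of -2.20 and -2.18. In the MLL-AF9 cotransduction, where Cdkn1c rose by 0.28, their differences were 0.24 for Oas3 and -0.16 for Oas1a, and in stable cells, where Cdkn1c fell by 0.40, they were -0.02 and 0.05. The closest genes to Cdkn2a were Gpt2 and Tmem154 (both 0.114, median 0.338). Those of Cdkn2c were Zfp260 (0.0726) and Wbp5 (0.0737), with a median of 0.359. Cdk4 lay closest to Tbc1d14 (0.0216) and Nudt16l1 (0.0284), with a median of 0.174, and Cdk6 to Zbed6 (0.0820) and Arrb1 (0.0978), with a median of 0.419. Cdkn1b lay closest to Mkrn2 and Cul4b (both 0.0380, median 0.150) and Cdkn2d to Pcf11 (0.0796) and Fam13b (0.0851, median 0.230). The 12 points share libraries and tables, so these distances are a description only.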

How the data were processed

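RNA was sequenced from 12 libraries in 6 groups of 2, as the report describes. Per the submitters' processing notes, reads were handled with Bowtie2 2.0.0.7, TopHat2 2.0.3 and Cuffdiff on mm9. No source used here gives the role or settings of each, or the annotation. Per the labels' protocols, TruSeq v2 libraries were made from total RNA and primed with oligo(dT). Gene-level FPKM values, which the authors deposited, fill 3 tables, 1 per experiment, each normalized separately, with no counts. Total depth is therefore unknown. Low values gave only the depth of replicate 2 over replicate 1, 1.63 in the MLL-AF9 cotransduction with PRDM16 and 0.919 to 1.17 in the other groups. Low genes carry the larger error.

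Each table was fitted alone with limma 3.58.1 in R 4.3.3 on log2(FPKM + 1), with a variance trend, two-sided, for 11071, 11010 and 10580 genes that reached an FPKM of 1 in 2 or more of 4 libraries. P-values were Benjamini-Hochberg adjusted over those genes. A fold change on this scale understates that of low genes. Differences between experiments came from contrasts in 1 fit to all 12 libraries. The scripts were tested on simulated data. Alternatives were pseudocount 0.1, no filter, an FPKM of at least 5, quantile normalization, median-of-ratios scaling, no trend, a spread shared over 12 libraries, a replicate block and leaving out each library, where the lone library left is assumed to vary like the others. The rule for named genes was all 9 genes, up to 3 called genes of smallest p per pathway list and comparison, and the 2 closest genes by pattern. Ccnd2, Ccnd3, Fas, Tnfrsf10b, Rrm2b, Mdm2, Trp53, Klf6, Kit, Pax5 and Tpsab1, where outside that rule, were named after their values were seen. The 9 genes and the lists were chosen with earlier results of these data known. Of the spreadsheet-altered date symbols (25 to 27 per table), joins left out only the first entry of those listed more than once.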

Additional observations from a re-analysis of the deposited data

Results flagged for a closer look

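For 18 of the values above, the change with PRDM16 differed between experiments when that difference itself was tested (limma contrasts over 9488 genes, adjusted p under 0.05). Each value is the log2 change in the first experiment minus that in the second. Over all genes 71.4%, 64% and 37.1% differed in the 3 pairs of experiments, so such a difference is common in these tables.

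For the E2A-HLF cotransduction minus the MLL-AF9 cotransduction, the difference was -0.33 for Cdkn1a, -2.45 for Cdkn1c, 0.60 for Cdkn2a, -1.55 for Cdkn2c, 0.64 for Cdkn2d, -0.52 for Cdk4 and 1.59 for Cdk6. The limma adjusted p ran from 6.41e-09 for Cdkn1c to 0.00894 for Cdkn2d. Cdkn1c, Cdkn2c and Cdk4 were called in opposite directions in these 2 experiments.

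For stable cells minus the MLL-AF9 cotransduction, the difference was -0.58 for Cdkn1a, -0.67 for Cdkn1c, 0.55 for Cdkn2a, -0.80 for Cdkn2c, 0.69 for Cdkn2d, -0.23 for Cdk4 and 1.28 for Cdk6. The limma adjusted p ran from 1.37e-05 for Cdkn1a to 0.00925 for Cdk4. For stable cells minus the E2A-HLF cotransduction, it was -0.25 for Cdkn1a, 1.78 for Cdkn1c, 0.75 for Cdkn2c and 0.29 for Cdk4, with limma adjusted p from 3.63e-07 for Cdkn1c to 0.00843 for Cdkn1a. The -0.25 of Cdkn1a was -0.17 and not called after quantile normalization (adjusted p = 0.0805). With the same normalization the -0.23 of Cdk4 in stable cells minus the MLL-AF9 cotransduction was -0.14 (adjusted p = 0.0469). With a pseudocount of 0.1 the differences of 0.64 and 0.69 for Cdkn2d were 1.002 and 1.07.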

How the results depend on the processing

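Over the single-gene values and their alternatives, 713 kept direction and side of the threshold, 28 kept direction but were no longer called, 2 became called and 13 changed sign. In stable cells 673 genes were called, against 41 with no filter, 278 with no trend, 395 with the shared spread, and 65 to 139 with 1 library left out. Of the 9 genes, 3 were called there, against 0 with no filter (limma, 4 at an unadjusted p under 0.05) and 1 with any library left out. In the MLL-AF9 cotransduction 8 were called, and 5 to 8 with 1 library left out. Differences between experiments changed sign for Cdkn1b (E2A-HLF minus MLL-AF9 cotransduction) with median-of-ratios scaling, at 0.0129, and for Cdkn2a and Cdkn2d (stable cells minus E2A-HLF) with quantile normalization, at 0.00910 and -0.0598. With 1 library left out these 3 differences ran from -0.0980 to 0.0801, -0.107 to 0.0190 and -0.0209 to 0.137, Cdkn1b in the MLL-AF9 cotransduction from -0.135 to 0.0432, Cdkn2d in the E2A-HLF cotransduction from -0.0272 to 0.130 and Cdk6 in stable cells from -0.0792 to 0.0438. None of these was called with all libraries and settings as reported. The cause was not tested. Total depth is unknown, which limits what low genes such as Cdkn2b in stable cells can show.

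Replicates share only a number. Their deviations correlated at 0.067, 0.289 and 0.319 in the 3 experiments. With a replicate block 7812, 4354 and 664 genes were called, against 7698, 4822 and 673, and 7, 5 and 3 of the 9 genes. The block left Cdkn2a in the MLL-AF9 cotransduction (adjusted p = 0.0648) and Cdk4 in the E2A-HLF cotransduction (0.0805) uncalled.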
